A study of Mus musculus with 3 samples.

Results

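The tumor necrosis factor (TNF) superfamily ligands analysed here were 9 genes, chosen by their gene names on the array: Tnf, Lta, Ltb, Fasl, Tnfsf9, Tnfsf10, Tnfsf13b, Tnfsf14 and Tnfsf15. They were 9 of the 36870 gene names on the array, and 14 of its 56605 probes carried them. The samples were RAW264.7 cells, a mouse macrophage cell line, that received lipopolysaccharide (LPS, the bacterial agonist of TLR4) alone, or *L. plantarum* LOC1 or LOC3 and then LPS, with 1 array per condition. All 3 groups received LPS for 3 h, at a concentration that is 50 ng/mL in the methods but 100 ng/mL where results are described. The labels put the time with bacteria before LPS at 12 h, the methods at 24 h. The array of macrophages with neither bacteria nor LPS was not analysed here, and its level was read only through the authors' deposited ratios. Since each condition is 1 array, differences carry no SD between cultures, no test and no p-value, and fewer expressing cells cannot be told apart from less RNA per cell.

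Ligands of this superfamily are mostly made as trimeric type II membrane proteins, several of which are cut off the surface by proteases, and they act on receptors of the TNF receptor superfamily. Some receptors carry a death domain and can lead to apoptosis, others recruit TRAF adaptors and activate NF-kB. In macrophages, Tnf is an early product of TLR4 signalling, whereas lymphotoxins and Fasl are best known from lymphocytes.

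Signals are intensities, background-subtracted by the scanner software. Between arrays, the log2 intensity minus that of the array's 75th percentile was compared, and 2-fold, or 1 on the log2 scale, was the threshold for a call. Dimmer signals, not well above background, were set to the lowest intensity that was (16.3 for LPS, 14.5 for LOC1, 19.8 for LOC3), and the difference is then a bound. Probes printed repeatedly on an array showed the spot noise, here called the technical SD. For a log2 difference it was 0.06 in bright probes and 0.32 in dim probes, those averaging over 2-fold below the 75th percentile. Between 47.8% and 51.9% of probes were well above background, and no spot was saturated. All 7 macrophage markers found on the array, Adgre1, Cd14, Cd68, Csf1r, Itgam, Lyz2 and Fcgr1, were well above background on the 3 arrays. The NK cell markers Ncr1 and Klrb1c were not above it on any array, and of the B cell markers only Ms4a1 was, on the LPS and LOC1 arrays. Of the T cell markers Cd3g and Cd8a were never above background, while Cd3d, Cd3e and Cd4 each had a probe above it on all arrays, with a highest intensity of 895 for Cd4 on the LPS array. Ms4a1 had intensities of 29.0, 55.9 and 18.8 for LPS, LOC1 and LOC3. The unscaled intensities of the macrophage markers summed to 478304, 383012 and 415028 in the same order, a sum carried mostly by Lyz2 and Csf1r. After scaling, their median log2 difference from LPS was 0.04 with each strain, and 4 of 7 lay above 0 with each. Single markers were not level, by their brightest probes. With LOC1 and LOC3, Csf1r differed by -0.89 and -0.70 and Itgam by -0.54 and -0.30, whereas Adgre1 differed by 0.57 and 0.38. The T cell markers summed to 1365, 1220.5 and 1265. The part of these in the results was not tested.

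Promoter sequences are given for Tnf, Lta and Ltb, neighbours on chromosome 17 whose signals differed unequally from LPS, for Tnfsf15, whose differences were close to those of Tnf, and for Tnfsf14, the member that differed most in the opposite direction. Each window holds 250 bases before and 50 from the RefSeq start in GRCm38.p6, written 5′ to 3′ on the strand of the gene. Capitals mark the TATA box (TATAAA), the AP-1 consensus (TGANTCA) and the NF-kB consensus, all searched on both strands together with a pair of GAAA half-sites spaced as in interferon-stimulated response elements.
Tnf, chr17:35201958-35202257, minus strand: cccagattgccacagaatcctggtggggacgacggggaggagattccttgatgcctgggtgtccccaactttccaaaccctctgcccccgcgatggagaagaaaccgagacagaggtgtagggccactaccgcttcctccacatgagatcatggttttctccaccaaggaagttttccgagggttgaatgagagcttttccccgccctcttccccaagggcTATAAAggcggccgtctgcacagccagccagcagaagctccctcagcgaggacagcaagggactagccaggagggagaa
Lta, chr17:35205302-35205601, minus strand: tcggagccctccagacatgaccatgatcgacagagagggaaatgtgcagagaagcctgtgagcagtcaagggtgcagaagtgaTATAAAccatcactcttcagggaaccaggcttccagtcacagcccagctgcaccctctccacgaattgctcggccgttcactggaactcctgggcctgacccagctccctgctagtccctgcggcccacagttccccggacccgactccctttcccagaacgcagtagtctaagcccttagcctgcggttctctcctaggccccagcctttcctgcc
Ltb, chr17:35194257-35194556, plus strand: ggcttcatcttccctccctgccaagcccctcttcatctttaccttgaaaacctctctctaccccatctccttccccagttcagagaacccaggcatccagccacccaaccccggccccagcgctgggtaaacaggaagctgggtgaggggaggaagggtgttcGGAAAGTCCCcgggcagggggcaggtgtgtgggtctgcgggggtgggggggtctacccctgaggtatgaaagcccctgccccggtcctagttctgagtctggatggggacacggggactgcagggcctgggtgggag
Tnfsf15, chr4:63745010-63745309, minus strand: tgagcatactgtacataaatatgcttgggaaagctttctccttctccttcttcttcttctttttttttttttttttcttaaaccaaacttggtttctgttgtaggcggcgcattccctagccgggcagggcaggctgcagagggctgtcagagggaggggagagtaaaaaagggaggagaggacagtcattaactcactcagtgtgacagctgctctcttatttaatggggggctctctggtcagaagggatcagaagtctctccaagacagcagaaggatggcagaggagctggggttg
Tnfsf14, chr17:57194132-57194431, minus strand: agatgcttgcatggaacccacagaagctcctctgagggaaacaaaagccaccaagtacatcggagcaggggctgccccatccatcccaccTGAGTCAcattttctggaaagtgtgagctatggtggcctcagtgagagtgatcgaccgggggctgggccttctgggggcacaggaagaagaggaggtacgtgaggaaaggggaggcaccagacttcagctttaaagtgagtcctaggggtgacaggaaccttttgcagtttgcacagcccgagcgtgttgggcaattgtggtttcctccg

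The Tnf window held a TATA box at positions -29 to -24 from the start, and that of Lta held the same letters farther upstream, at -167 to -162. Ltb had a match to the NF-kB consensus on the opposite strand at -87 to -78, and Tnfsf14 a match to the AP-1 consensus at -160 to -154. Tnfsf15, Tnfsf10 and Fasl held none of the 4 motifs. Tnfsf13b has 2 starts in the table, and their windows overlap. Both windows hold the same AP-1 match, at 40 to 46 from the first start and at -127 to -121 from the second. The paired half-sites lay at -16 to -7 of the second start. Apart from this shared AP-1 site, no match overlapped another. Of all 32851 promoters in the table, the shares with a match were 13.6% for the TATA box, 7.81% for AP-1, 8.46% for NF-kB and 3.44% for the paired half-sites. No promoter of Tnfsf9 was matched. These matches are letters in a window and were not tested for binding.

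In the deposited ratios to unchallenged macrophages, 6 of the 9 members were listed as higher with LPS and 0 as lower. Of all gene names on the array, 9.7% were listed as higher and 8.66% as lower. Cells of the table under 2-fold are blank, and the signal of unchallenged macrophages implied by a ratio is given here on the scale of the LPS array. Members fell into those with a large ratio and those with a small one.

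Tnf, Tnfsf10 and Tnfsf15 had the large ratios. Tnf, the founding inflammatory cytokine of the family, went from an implied intensity of 565 to 33941 with LPS in its listed probe, a log2 ratio of 5.91. Tnfsf10, also called TRAIL, which binds death receptors, had a log2 ratio of 6.16, from an implied intensity of 19.9 to 1426. That implied intensity lay only just above the limit of 16.3, so the ratio depends on a signal close to background. Tnfsf15, also called TL1A, which costimulates lymphocytes through Tnfrsf25, had a log2 ratio of 6.61, from 37.1 to 3627. The brighter probes of Tnf and Tnfsf15 and the dimmer probe of Tnfsf10 are not listed.

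Lta, Ltb and Tnfsf9 had ratios close to 3-fold. The lymphotoxin gene Lta had a log2 ratio of 1.49, from an implied intensity of 44.3 to 124. Ltb, whose product anchors lymphotoxin alpha to the membrane, had 1.52, from 713 to 2050. Tnfsf9, the ligand of CD137, had 1.64, from 3202.5 to 9989. All 3 were therefore already above the limit in unchallenged macrophages.

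Tnfsf14, Tnfsf13b and Fasl had no listed ratio with LPS. For Tnfsf14 the unchallenged level could still be read, since ratios were listed with LOC1 and LOC3. Its implied intensity was 113 against 185 with LPS, a rebuilt log2 ratio of 0.72, which is under 2-fold. Tnfsf13b had no value in any column. Fasl, the ligand of the death receptor Fas, was at 4.01, 10.6 and 6.04 on the LPS, LOC1 and LOC3 arrays, never well above background, so its listed log2 ratio of 1.77 with LOC1 gives no fold.

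**Figure D1:**
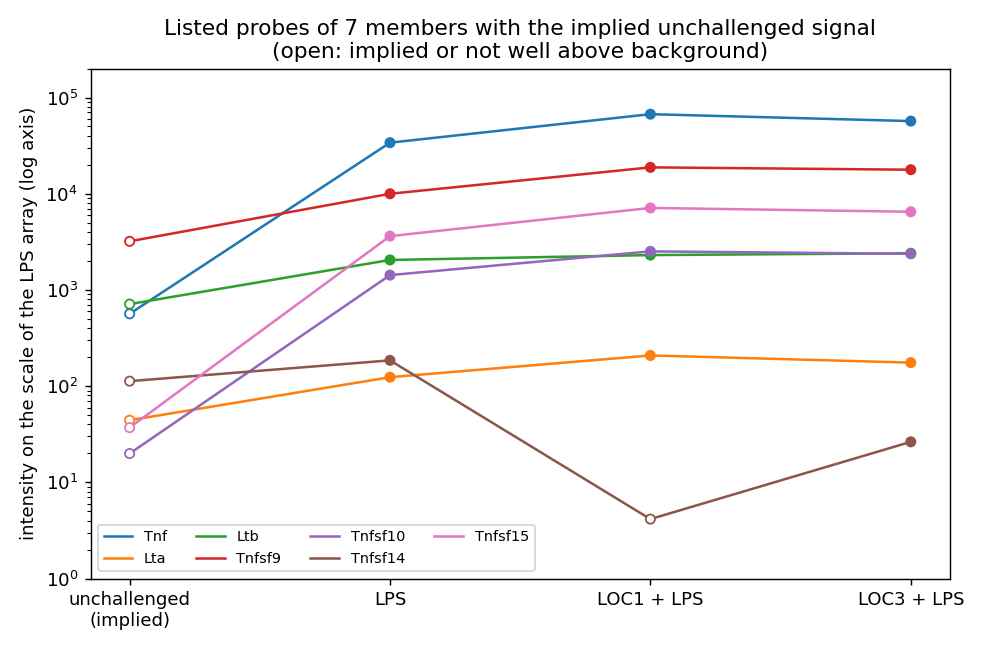
Intensity on a log axis, on the scale of the LPS array, for the listed probes of 7 members in unchallenged macrophages (implied from the deposited ratios, open points) and on the 3 arrays, where an open point is not well above background and lines only join the points of 1 gene. Tnf, Tnfsf10 and Tnfsf15 were between 60.1-fold and 97.8-fold above the implied unchallenged level with LPS. Tnfsf14 alone lay below that level with LOC1 and LOC3, and it was listed only through those lower ratios.

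Against LPS alone, the members are grouped here by their own differences with LOC1. The same groups are used for LOC3, so a like division with both strains is no test. Tnf, Lta, Tnfsf9, Tnfsf10 and Tnfsf15 were between 1.64-fold and 1.97-fold higher with LOC1, and between 1.38-fold and 1.81-fold higher with LOC3, by their brightest probes. The lowest of these, Lta with LOC3, was not separated from spot noise. Tnfsf14 fell, by at least 11.8-fold with LOC1 and by 7.21-fold with LOC3. Tnfsf13b was lower by less than 2-fold, and Ltb differed little. Tnfsf14 was the single member past 2-fold in either comparison, 1 of 8 compared, where 6.3% of all genes compared passed with LOC1 and 6.15% with LOC3.

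By direction, 2.49% of the genes compared were past 2-fold higher and 3.81% lower with LOC1, and 2.98% and 3.18% with LOC3. The split of all genes with LOC1 was 499 higher and 762 lower. It turned to 890 and 465 with arrays scaled by their medians, and to 627 and 610 with quantile normalization. With LOC3 it moved from 589 higher and 629 lower to 890 and 376 with median scaling. Median scaling put 5 of 8 members past 2-fold with LOC1 and 2 of 8 with LOC3. Of all genes compared, it put 1355 of 20019 and 1266 of 19790 past 2-fold. On the log2 scale, the 8 members had a median difference of 0.75 for LOC1 and 0.58 for LOC3, beside 0.00 and 0.01 over all genes compared. Of the members well above background on both arrays, 6 of 7 lay above 0 for LOC1, against 51.4% of such genes, and 6 of 8 for LOC3, against 55.6%. Both comparisons use the same LPS array, so the noise of that array is in both.

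**Figure D2:**
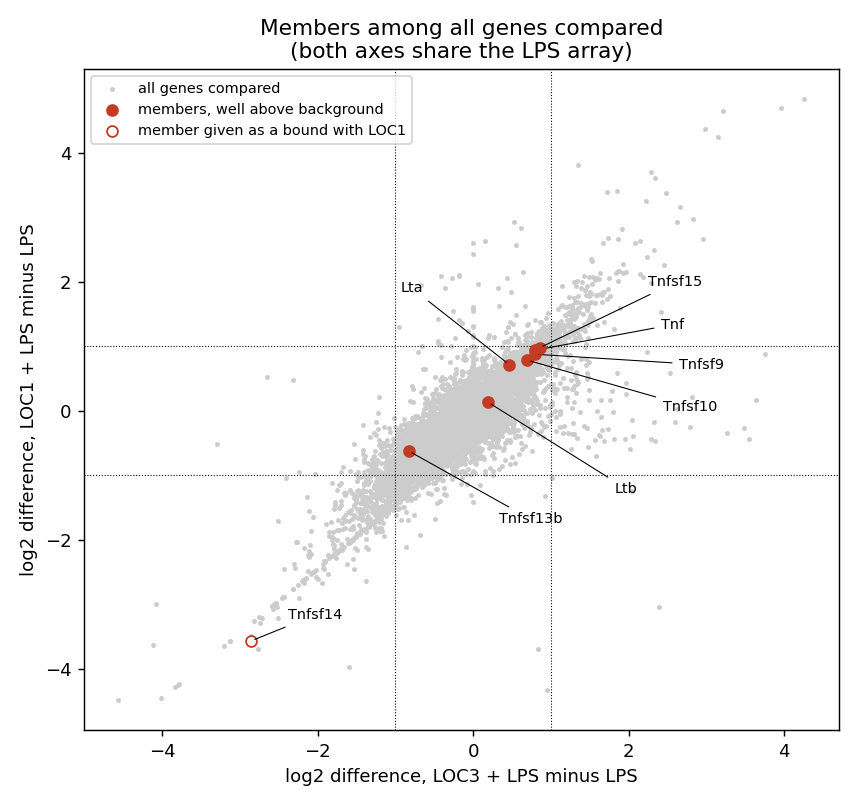
Log2 differences from LPS with LOC3 (x axis) and LOC1 (y axis), each point 1 gene by its brightest probe, with dotted lines at 2-fold and members in red. Tnf, Tnfsf9, Tnfsf10 and Tnfsf15 sit together inside the upper 2-fold lines, Lta lies lower at 0.72 with LOC1 and 0.47 with LOC3, Tnfsf13b lies at -0.62 with LOC1 and -0.83 with LOC3, and Tnfsf14, a bound with LOC1, lies far below. The LPS array enters both axes.

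Tnf was measured by 2 probes on chromosome 17 of mm9, at 35336795 to 35336854 and 35336967 to 35337026, with 112 bases between them. The brighter one read 57817 for LPS, 102592 for LOC1 and 93274 for LOC3 in intensity. The other had 33941, 60674 and 51586. In both, the LPS array was lowest and the LOC1 array highest. Their log2 differences with LOC1 were 0.94 and 0.95, and those with LOC3 were 0.79 and 0.71, between 11.6 and 15.5 times the technical SD and all under 2-fold. With median scaling the brighter probe passed 2-fold with LOC1, at 1.16.

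Tnfsf15 went along with Tnf. Its probe at 63388134 to 63388193 on chromosome 4 read 4582 on the LPS array, 8364 on the LOC1 array and 7734 on the LOC3 array. The probe 2273 bases away had 3627, 6435 and 5888. The order of the arrays was that of Tnf. The log2 differences were 0.98 and 0.94 with LOC1 and 0.86 and 0.80 with LOC3. The brighter probe thus lay directly at the threshold with LOC1, and passed it, at 1.01, when the 75th percentile was taken with 1 value a probe.

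Tnfsf9, with 1 probe at 57247062 to 57247121 on chromosome 17, read 9989 for LPS, 16989 for LOC1 and 16118 for LOC3. The LPS array was the low one. On the log2 scale it was 0.88 and 0.79 higher for LOC1 and LOC3, or 1.84-fold and 1.73-fold. The arrays with bacteria lay within 1.39 times the technical SD of each other.

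The probes of Tnfsf10 disagreed. The brighter one, at 27238508 to 27238567 on chromosome 3 and assigned to the RefSeq transcript, read 1426, 2275.5 and 2154 on the LPS, LOC1 and LOC3 arrays. It was 0.79 and 0.70 higher with LOC1 and LOC3 on the log2 scale. The dimmer one, 2735 bases away and assigned to an Ensembl transcript, had 199, 198 and 222. Its log2 differences of 0.10 and 0.26 were within the technical SD of dim probes. The mean of both probes was 0.45 higher for LOC1 and 0.48 for LOC3.

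Lta and Ltb lie on either side of Tnf, Lta as the next gene and Ltb with Mir6973a in between in RefSeq, and their differences were smaller. Lta, with a probe at 35340275 to 35340334, read 124 for LPS, 189 for LOC1 and 159 for LOC3. The log2 differences of 0.72 and 0.47 were 2.27 and 1.47 times the technical SD of dim probes, so the one with LOC3 is not separated from spot noise. With normexp background correction they were 0.56 and 0.38. Ltb, at 35333097 to 35333156, had an intensity of 2050, 2082 and 2182 on the arrays with LPS, LOC1 and LOC3. It was higher by 0.13 with LOC1 and 0.19 with LOC3, which are 2.20 and 3.17 times the technical SD of bright probes. The 3 arrays were thus nearly level for Ltb, with LPS lowest.

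**Figure D3:**
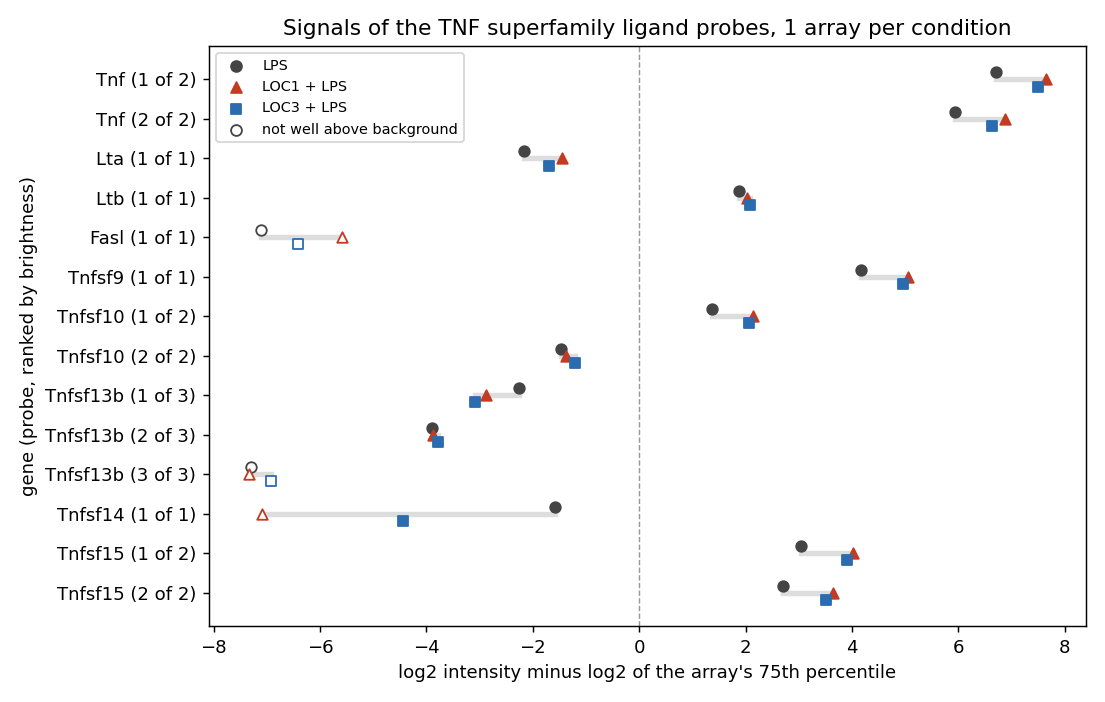
Log2 intensity minus that of the array's 75th percentile (x axis) for each of the 14 probes, ranked by brightness within a gene, with 1 point per array and open points where a signal was not well above background. In Tnf, Lta, Tnfsf9, Tnfsf15 and the brighter probe of Tnfsf10, LPS is lowest and LOC1 highest, whereas for Tnfsf14 the LPS array is highest.

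Tnfsf14, also called LIGHT, which binds Tnfrsf14 and Ltbr, had 1 probe, at 57329192 to 57329251 of chromosome 17. It read 185 for LPS and 23.9 for LOC3, and only 3.75 for LOC1, which is not well above background. The LPS array was thus far above the others. The fall with LOC3 was -2.85 on the log2 scale, 9.02 times the technical SD of dim probes. The signal with LOC3 lay close to the lowest one well above background on that array, 19.8. With normexp background correction, the differences were smaller, -1.58 as a bound with LOC1 and -1.36 with LOC3, and still past 2-fold.

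Against the implied unchallenged intensity of 113, Tnfsf14 was lower, at least 7.02-fold for LOC1 and 4.27-fold for LOC3. The deposited log2 ratios were -4.76 and -2.10. Of the 7 members with a listed ratio and an implied signal above the limit, it was the one below its unchallenged level in both groups with bacteria. The others were listed as higher with LPS, and Tnfsf14 was listed only because it was lower with bacteria. Its standing alone thus partly follows from the listing. Tnfsf13b, without a listed ratio, could not be placed.

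Tnfsf13b, also called BAFF, a survival factor of B cells, was measured by 3 probes on chromosome 8 that disagreed. The brightest, at 10035561 to 10035620 and assigned to the RefSeq transcript, read 116, 69.5 and 60.7 for LPS, LOC1 and LOC3. Its log2 differences were -0.62 and -0.83, 1.97 and 2.61 times the technical SD of dim probes. The second, 9372 bases away, had 37.4, 34.9 and 37.5, log2 differences of 0.01 and 0.11. The third was not well above background on any array. Both dimmer probes are assigned to Ensembl transcripts.

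Between the strains, no member was past 2-fold, where 2.63% of the genes compared were, 0.8% higher and 1.83% lower with LOC1 than with LOC3. Of the 7 members well above background on both arrays 6 lay above 0, against 44.9% of such genes. Tnf was 0.15 higher with LOC1 than with LOC3 in the brighter probe and 0.24 in the other, 2.39 and 3.97 times the technical SD. Tnfsf15 was 0.12 and 0.14 higher, 1.99 and 2.24 times. Lta, Tnfsf9, Tnfsf10, Tnfsf13b and Ltb differed by 0.64 to 1.44 times the technical SD in their brightest probes, so the order of LOC1 and LOC3 is not settled for them. Tnfsf14 was at least 1.64-fold lower with LOC1 than with LOC3, a bound of -0.71 on the log2 scale. This bound depends on how background is handled, and was -0.22 with normexp background correction. The spread between cultures, which was not measured, would come on top of these.

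Of the other ligands of the superfamily, 8 of the 9 listed names were found on the array, and 4 were above background on at least 1 array in each comparison. Tnfsf18, the ligand of GITR, rose, from 9.52 with LPS, not well above background, to 39.9 with LOC1 and 33.4 with LOC3, at least 2.64-fold and 2.20-fold. Eda, ectodysplasin, fell in its brightest probe, from an intensity of 90.0 to 28.9 and 36.9, log2 differences of -1.52 and -1.18. Its other probes were not well above background on any array. Tnfsf12, also called TWEAK, read 104, 50.9 and 51.8, log2 differences of -0.92 and -0.90. Tnfsf8, the ligand of CD30, was at -0.58 with LOC1 and 0.20 with LOC3. Cd40lg, Cd70, Tnfsf4 and Tnfsf11 stayed near background throughout. The list thus had 1 gene past 2-fold higher and 1 lower with each strain, 2 of 4 compared, against 6.3% of all genes with LOC1 and 6.15% with LOC3. Tnfsf18 was compared only through the arrays with bacteria, where it was high, so these counts say nothing about the list. The list had a median of -0.75 with LOC1 and -0.35 with LOC3, which includes Tnfsf18 and has the same limit.

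None of the receptors of the members was past 2-fold, of 10 compared with LOC1 and 9 with LOC3. With 6.3% and 6.15% of all genes past it, so few genes would hold hardly any call, and the count is no result about the receptors. Their medians were 0.00 and 0.08. Tnfrsf1a, the TNF receptor with a death domain, read 23104, 20721 and 23463 for LPS, LOC1 and LOC3. Tnfrsf1b, the TNF receptor without one, read 26370, 28970 and 29189 in its brightest probe, a log2 difference of 0.25 with each strain. Its dimmer probe, on another transcript, went the other way, with -0.43 and -0.51. Ltbr, the receptor of lymphotoxin and of Tnfsf14, differed by 0.05 and 0.08.

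Tnfrsf9, or CD137, whose ligand Tnfsf9 was higher, read 9605 for LPS, 5265 for LOC1 and 6014 for LOC3. The log2 differences of -0.75 and -0.57 were 12.3 and 9.35 times the technical SD, and the dimmer probe had -0.47 and -0.31. Fas differed by -0.65 and -0.37. Tnfrsf14, whose ligand Tnfsf14 fell, differed by -0.81 and -0.78, though its dimmer probe gave only -0.14 and -0.21. Tnfrsf23, a decoy receptor of Tnfsf10, differed by 0.74 and 0.53, and by 0.09 and 0.38 in the next brightest probe. Of the other listed receptors of Tnfsf10, Tnfrsf22 differed by 0.38 and 0.40, and by -0.02 and 0.22 in its dimmer probe. Tnfrsf10b read 12.5, 20.3 and 19.9 in its brightest probe, well above background on the LOC1 array only. Tnfrsf25, the receptor of Tnfsf15, and the BAFF receptors Tnfrsf13c and Tnfrsf17 were near background throughout, whereas the BAFF receptor Tnfrsf13b read 1473, 1087 and 1129.

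Of the genes that free ligands from the membrane, 5 of 6 were compared and none was past 2-fold, which is no result for so few genes beside the same 6.3% and 6.15% of all genes. Their medians were -0.10 and -0.01. Adam17, the protease that sheds TNF, read 7074, 4539 and 4748 for LPS, LOC1 and LOC3. Its log2 differences were -0.53 and -0.47, and all 3 of its probes lay below 0 for both strains. Rhbdf2, which brings Adam17 to the surface, differed by -0.01 and 0.10. Furin, a proprotein convertase, differed by 0.08 and 0.16 in its brightest probe, of which 28 bases are placed in the genome, and by -0.30 and -0.13 in the other. Rhbdf1 was not well above background.

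**Figure D4:**
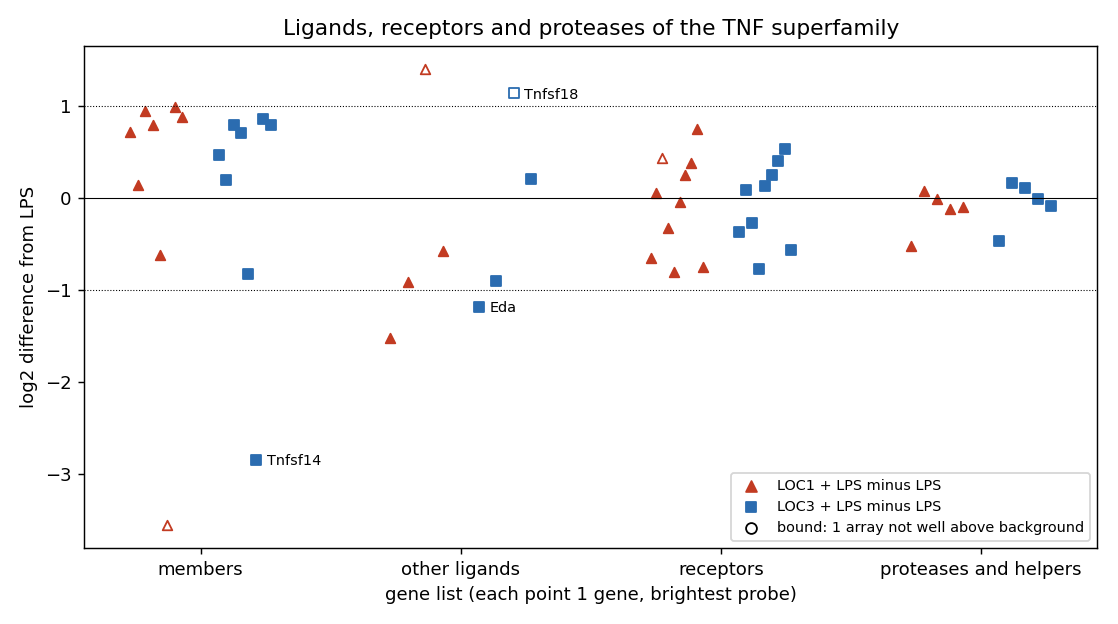
Log2 differences from LPS with LOC1 (triangles) and LOC3 (squares) for the members, the other ligands, the receptors of the members and the proteases and helpers, each point 1 gene by its brightest probe, open where the value is a bound. Receptors and proteases stay within the dotted 2-fold lines, and Tnfsf14, Eda and Tnfsf18 lie outside them.

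The genes whose differences were most like those of Tnf were Ccnd1, Slamf9 and Gm10426, among 9349 genes that were above the 75th percentile on all 3 arrays. Likeness was the distance over both log2 differences from LPS, and was 0.015 for Ccnd1, 0.022 for Slamf9 and 0.027 for Gm10426. Ccnd1, for example, differed by 0.93 with LOC1 and 0.79 with LOC3. Within 0.1 of Tnf lay 34 genes, so these places rest on very small gaps over 3 arrays.

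**Figure D5:**
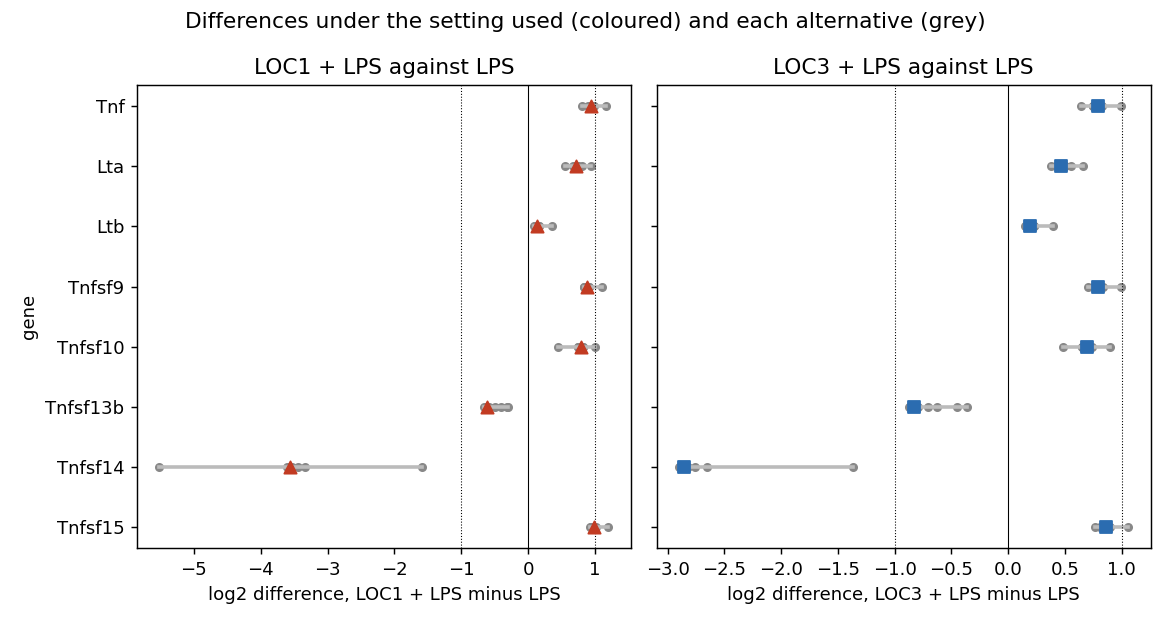
Log2 difference from LPS of each member with LOC1 (left) and LOC3 (right), with the value used in colour and the value under each alternative processing in grey, and dotted lines at 2-fold. The 8 members compared kept their sign under the alternatives that gave a value, several of which left most values unchanged. Tnfsf14 ranged from -5.51 to -1.58 with LOC1, and Tnf, Tnfsf9, Tnfsf10 and Tnfsf15 crossed 2-fold with LOC1 under median scaling.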

How the data were processed

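RNA from RAW264.7 macrophages (200 ng per array) was hybridised by the authors to Agilent mouse arrays of 1 colour. The deposited intensity of a spot is the processed signal of Feature Extraction (version 12.0.3.1 in the file headers), which subtracts background and removes spatial trends, and arrays were not normalized to each other. The deposited log2 ratios to unchallenged macrophages were made by the authors in GeneSpring, and values under 2-fold are blank. R 3.2.5 and limma are named in the submitters' processing notes.

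Control spots and outlier spots (118 to 135 per array) were left out, and spots of 1 probe were averaged. The log2 intensity less that of the 75th percentile of the non-control spots was compared, with a threshold of 2-fold. A gene was its brightest probe. Python 3.11.15, numpy 2.4.6, pandas 2.3.3, matplotlib 3.10.9 and limma 3.58.1 (normexp, offset 50) were used, and the comparison was tested on simulated data. The number of arrays limits the precision.

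All 9 members are named with all their probes. Of the other ligands, the receptors and the proteases, those past 2-fold and the brightest were to be named, and the other named genes were chosen after their values were seen. The 3 genes nearest to Tnf over both differences were named too. The members and lists were chosen with earlier results of these data known. Positions of probes were read from the files, in mm9, whose annotation of exons was not used here. Of the 14 probes, 11 matched their gene by accession in the RefSeq table, which also gave the promoters. Alternatives tried were other scalings, quantile normalization, normexp, the deposited ratios, the mean of detected probes, other filters on dim probes, outlier spots kept and a 3-fold threshold. A t-test needs more than 1 array per condition and was not run.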

Additional observations from a re-analysis of the deposited data

How the results depend on the processing

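Of 233 member differences recomputed under the alternatives, over the 3 comparisons, 232 kept their sign. Many of these could not change, so the count overstates how far the signs were tried. Keeping outlier spots or changing the filter on dim probes returned the same value for every member but Tnfsf14. The mean of detected probes did so for members with 1 probe. The exception was Tnfsf10 between LOC1 and LOC3, at 0.09 by its brightest probe and -0.03 as the mean of its probes. The number of members past 2-fold with LOC1, 1 as reported, was 5 with median scaling, 2 without filter and floor, 2 with the 75th percentile over probes (chosen after seeing the data), and 0 for genes above background on both arrays and by the deposited ratios, neither of which gives a value for Tnfsf14. With LOC3 the number, 1 as reported, was 2 with median scaling and 0 by the deposited ratios. Between LOC1 and LOC3 it was 0 as reported, and 1 without filter and floor and by the deposited ratios, in each case Tnfsf14, at -2.66 and -2.67. With normexp the bound of Tnfsf14 in that comparison was only -0.22. Under median scaling the median of all genes was 0.22 (log2) for LOC1 and 0.21 for LOC3, and the differences of Tnf, Tnfsf9, Tnfsf10 and Tnfsf15 with LOC1, then past 2-fold, were 1.16, 1.10, 1.01 and 1.20. With normexp 421 genes were past 2-fold with LOC1 in place of 1261, and 3839 without filter and floor. Of the 6 members listed as higher with LPS, 4 were past 3-fold. The implied signals of all 6 already lay above the limit, so raising them to it could change nothing. No paired analysis was possible because each group has 1 array. Signal over background limits Lta, Tnfsf13b, Tnfsf14 and Fasl, whose probes were dim.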

Other observations

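The deposited ratios of LOC1 and LPS differed from the log2 intensities by a constant of -0.146 per array pair, and those of LOC3 and LPS by -0.141. The 75th percentile with 1 value a probe gives -0.145 and -0.138, and the percentile over spots used here gives -0.113 and -0.104. Probes printed repeatedly count once in the former.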
